A study of Homo sapiens with 8 samples.

Results

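The effect of adding the BET bromodomain inhibitor JQ1 to the HER2 kinase inhibitor lapatinib was measured in BT474m1 cells, by setting the library treated with both drugs beside the library treated with lapatinib. Members were all genes that reached 100 units in either of these libraries, which took in 10813 of the 20531 genes listed and left out 9718. The series holds 8 libraries of poly(A) RNA, 1 for each treatment of 2 HER2-amplified breast cancer cell lines, BT474m1 (a derivative of BT474 that carries estrogen and progesterone receptors) and SKBR-3 (which lacks them). Each line was grown as a culture in RPMI with serum and received DMSO (the vehicle), 300 nM lapatinib, 300 nM JQ1, or 300 nM of each, for 48 h per the labels. All comparisons are therefore of 1 library with 1 library, and no p-value can be given. Each line stands for itself only, and whether the libraries of a line were cultured side by side is not given in the sources used here.

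Values are normalised read counts, scaled in each library to an upper quartile of 1000 over all genes that were detected. Changes are given as differences of log2(value + 1), folds are on that same scale, and "raised" or "lowered" means a change of at least 2-fold. A 95% exact Clopper-Pearson interval, written in square brackets after a log2 change, was computed from the reads behind each value and covers counting error only. The 4 BT474m1 libraries held between 26574899 and 34112379 reads on genes, and 1 read was worth 0.471 to 0.602 units. All 10 luminal epithelial markers examined had a value of 100 or more in each BT474m1 library, which fits the label. The summed level of 7 basal markers lay between 70.1 and 119 over the same libraries, with 1 to 4 of them at 0. Of 6 fibroblast markers COL1A1 was the 1 at 100 or more, at 1253 under DMSO, 1211 under lapatinib, 394 under JQ1 and 337 under the combination, and the summed level of 3 endothelial markers was 189, 30.7, 15.5 and 7.0 in that order, mostly VWF. Their part in other results was not tested.

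BET proteins, such as BRD2 and BRD3, bind acetylated lysines of histones at promoters and enhancers, and recruit the elongation kinase P-TEFb to release paused RNA polymerase II. JQ1 occupies the pocket that binds the acetylated lysine. In luminal breast cancer cells, inhibition of the HER2 and PI3K route is known to be followed by higher expression of receptors and of hormone receptor targets. The comparison asks which genes JQ1 changes in cells that are already under lapatinib.

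The promoters of 4 genes on which the description below turns are shown first, from RefSeq sequence of GRCh38.p14, each running from 250 bases before to 50 bases after the annotated start at the 5′ end of the gene. AGR3 (chr7:16881934-16882233, minus strand) and PGR (chr11:101129764-101130063, minus strand) belong to genes that were lowered. HEXIM1 (chr17:45148225-45148524, plus strand) and H3C14 (chr1:149841159-149841458, minus strand) belong to genes that were raised. Capitals mark motifs searched for on both strands, namely TATAAA as in the core promoter, the CCAAT box bound by NF-Y, and GGTCA as it occurs in estrogen response elements, and no base lay in 2 of them.
AGR3: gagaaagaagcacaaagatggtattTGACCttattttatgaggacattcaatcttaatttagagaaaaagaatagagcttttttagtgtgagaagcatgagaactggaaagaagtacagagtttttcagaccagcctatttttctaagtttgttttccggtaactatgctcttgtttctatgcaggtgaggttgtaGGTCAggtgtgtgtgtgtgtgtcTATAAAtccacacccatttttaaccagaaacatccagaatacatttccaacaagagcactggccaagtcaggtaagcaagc
PGR: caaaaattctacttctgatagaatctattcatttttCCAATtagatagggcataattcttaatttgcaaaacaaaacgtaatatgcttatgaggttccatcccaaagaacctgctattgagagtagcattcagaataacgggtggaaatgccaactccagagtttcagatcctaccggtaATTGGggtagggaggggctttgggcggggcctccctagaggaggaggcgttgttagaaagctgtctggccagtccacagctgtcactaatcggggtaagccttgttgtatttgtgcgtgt
HEXIM1: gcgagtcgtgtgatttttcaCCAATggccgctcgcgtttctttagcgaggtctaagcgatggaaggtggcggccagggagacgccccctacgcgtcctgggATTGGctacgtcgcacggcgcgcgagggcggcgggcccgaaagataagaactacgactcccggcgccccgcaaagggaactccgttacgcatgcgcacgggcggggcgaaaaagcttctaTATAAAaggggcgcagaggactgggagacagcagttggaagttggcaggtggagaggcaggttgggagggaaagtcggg
H3C14: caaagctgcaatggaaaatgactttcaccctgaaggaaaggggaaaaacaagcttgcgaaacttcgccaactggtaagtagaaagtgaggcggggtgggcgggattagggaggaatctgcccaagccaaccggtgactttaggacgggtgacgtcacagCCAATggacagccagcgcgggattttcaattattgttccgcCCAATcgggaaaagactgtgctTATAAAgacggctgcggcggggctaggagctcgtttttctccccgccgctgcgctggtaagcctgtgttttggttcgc
Both raised genes and AGR3 held TATAAA, 31 bases before the start in AGR3, 29 in HEXIM1 and 28 in H3C14. PGR, HEXIM1 and H3C14 each held CCAAT at 2 places, whereas AGR3 held none. GGTCA was found at 2 places in AGR3 and in none of the other 3. Across 27305 promoters of the same length, the first listed of each gene, 12% held TATAAA, 35.7% held CCAAT and 37.7% held GGTCA, so that each motif is common and a match is a description of the letters only. The promoters differed in composition, with 38.0% G and C in AGR3, 44.3% in PGR, 62.0% in HEXIM1 and 54.0% in H3C14. Promoters were matched for 706 of the 921 genes lowered (76.7%) and 259 of the 335 raised (77.3%). Under 80% of each set is covered, so a comparison of promoter composition between the sets would be void and was not made.

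JQ1 on top of lapatinib lowered more genes than it raised. Of the 10813 genes, 921 (8.52%) were lowered and 335 (3.10%) were raised, so that 73.3% of the 1256 genes past 2-fold went down. At least 4-fold changes numbered 278 lowered and 37 raised, at least 8-fold changes 111 and 11, and at least 16-fold changes 44 and 2. In bulk RNA, fewer cells in a given state and less RNA per cell cannot be told apart. Most genes stayed near 0, with a median log2 change of -0.01 and a middle range (25th to 75th percentile) from -0.35 to 0.28. The interval excluded no change for every one of the 921 and 335 genes. A gene that passed the filter through a single library had to differ, and 596 genes passed through the lapatinib library alone, of which 405 were lowered. A further 243 passed through the library of both drugs alone, of which 109 were raised. Among the 9974 genes at 100 or more in both libraries, 516 were lowered and 226 raised. At least 4-fold, 74 of these were lowered and 9 raised, so that most changes of that size were in genes that reached 100 in 1 library only. The annotated gene spans were of like length, with a median of 31.8 kb over 918 lowered genes, 27.6 kb over 330 raised genes and 30.8 kb over 10780 genes kept. Close to the threshold lay SYTL1 at a log2 change of -1.001 just inside and FAAH2 at -0.998 just outside on the lowered side, and TSGA10 at 1.001 just inside and INHBB at 0.997 just outside on the raised side.

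**Figure D1:**
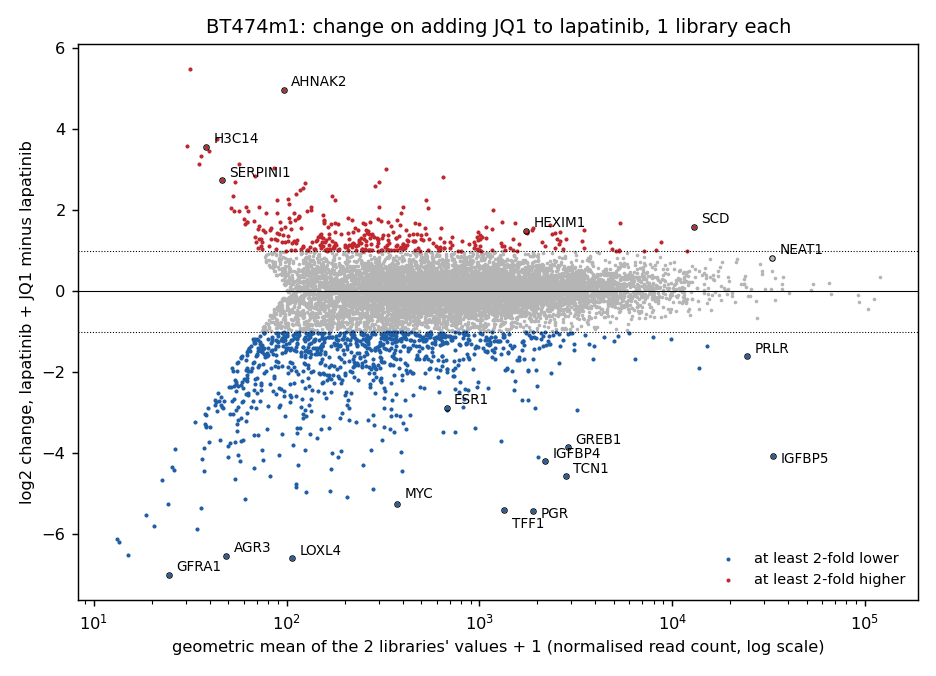
Log2 change between lapatinib + JQ1 and lapatinib in BT474m1 (vertical axis) against the geometric mean of both values + 1 (normalised read count, log scale), 1 point per gene for 10813 genes, 1 library a side. Dotted lines mark 2-fold; PGR and TFF1 lie at changes of -5.42 and -5.41 near TCN1, GREB1 and IGFBP4, and IGFBP5 lies further to the right at -4.06.

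The 15 genes lowered most were GFRA1, LOXL4, AGR3, KCNF1, LGR6, SYNDIG1, MAT1A, UGT2B15, KLK10, PGR, TFF1, C5AR2, PTPRB, MYC and CYP2S1, with log2 changes from -7.00 to -5.13. This order depended on the pseudocount of 1, since with a pseudocount of 10 LOXL4, PGR, TFF1, AGR3 and MYC fell further than GFRA1 (-4.68), and 7 of the 15 were still among the 15 lowered most. GFRA1, the co-receptor through which GDNF reaches RET, had a value of 27.8 under DMSO, 277 under lapatinib, 0.966 under JQ1 and 1.17 under the combination, which rests on 459 reads in the lapatinib library and 2 in the other (-7.00 [-10.94, -6.03]). LOXL4, a lysyl oxidase of the extracellular matrix, went from 42.4 under DMSO to 1049 under lapatinib, and was 6.28 under JQ1 and 9.91 under the combination (-6.59 [-7.51, -6.04]). AGR3, a small disulfide isomerase of the endoplasmic reticulum, stood at 97.1, 467, 3.86 and 4.08 in the same order (-6.53 [-8.16, -5.79]). In all 3 genes the lapatinib library was the highest of the 4 and both JQ1 libraries were lower than the DMSO library. They passed the filter through the lapatinib library alone, so that a high value there is part of how they were chosen.

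Several genes of this group were near the counting floor with both drugs. KCNF1 (a potassium channel subunit), LGR6 (a receptor for R-spondins) and SYNDIG1 each rested on 1 read with both drugs, against 236, 189 and 180 reads with lapatinib. UGT2B15, which conjugates steroids and shares sequence with close paralogues that make its count uncertain, and KLK10, a secreted serine protease, each rested on 3 reads. Their values with DMSO were low as well, at 6.13 for KCNF1, 7.07 for LGR6, 24.5 for SYNDIG1, 38.2 for UGT2B15 and 2.36 for KLK10. These 5 genes passed the filter through the lapatinib library alone, so that a high value there is part of how they were chosen. With both drugs 4 of them stood well below the DMSO value, while KLK10 was near the floor in both. The exact ratio is poorly fixed at such counts, as the interval for KCNF1 from -13.24 to -5.44 shows.

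The genes known as markers of BET inhibition moved in the directions for which they are listed. HEXIM1, which holds P-TEFb in its inactive complex, stood at 1204 under DMSO, 1046 under lapatinib, 2910 under JQ1 and 2931 under the combination, a 2.80-fold rise on top of lapatinib (1.49 [1.41, 1.57]). SERPINI1, which encodes neuroserpin, rose from 16.9 to 118 (2.74 [2.24, 3.44]). ZCCHC24 stood at 111 and 153 and did not reach 2-fold. ZMYND8, a reader of acetylated chromatin, stood at 3557, 4477, 795 and 883 (-2.34 [-2.42, -2.26]). Both JQ1 libraries were thus alike for HEXIM1 and ZMYND8, with or without lapatinib. Among the drug targets themselves BRD2 had values of 4033 and 6367 without and with JQ1 (0.66 [0.61, 0.70]), while BRD3 stood at 2544 and 2647 (0.06). Of the 10 BET and P-TEFb genes kept, HEXIM1 was the 1 gene raised and none was lowered, beside 3.10% and 8.52% of all genes kept, with a median of 0.03.

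MYC, the growth-promoting transcription factor and a classic BET-dependent gene, fell by more than any other member of its network. Its value was 463 under DMSO, 2312 under lapatinib, 37.2 under JQ1 and 60.1 under the combination, a 37.9-fold fall on top of lapatinib (-5.24 [-5.56, -4.98]). MYCN fell from 113 to 21 (-2.37 [-2.98, -1.90]), and MYCL had values of 870 and 1087 (0.32 [0.22, 0.42]). None of the 9 partners and antagonists passed 2-fold, the nearest being MXD1, which competes with MYC for the partner MAX, at 389 and 700 (0.85 [0.71, 0.99]). The 24 genes of ribosome biogenesis, a process that MYC is known to drive, had a median of -0.38. RRS1, a nucleolar factor for the large ribosomal subunit, was the 1 of the 24 that was lowered, from 814 to 211, and none was raised, beside 8.52% and 3.10% of all genes kept. Cytosolic ribosomal protein genes, all 76 of which were kept, had a median of -0.17 and none passed 2-fold.

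Estrogen and progesterone receptor genes formed the group that fell furthest. Of 21 kept, 16 were lowered and none was raised, beside 8.52% and 3.10% over all genes kept, and their median was -2.36 beside -0.01. Among members at 100 or more in both libraries the median was -2.16. ESR1 (estrogen receptor alpha, chr6:151656672-152129619) had a value of 840 under DMSO, 1827 under lapatinib, 190 under JQ1 and 249 under the combination, a 7.31-fold fall (-2.87 [-3.02, -2.73]). PGR (the progesterone receptor, chr11:101029624-101129813) stood at 858, 12466, 251 and 290, a 42.8-fold fall (-5.42 [-5.56, -5.30]). For both receptors the lapatinib library was the highest of the 4 and the library of both drugs lay below DMSO.

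Secreted products and regulators known to be under estrogen control were lowered as well, and receptor activity was not measured. TFF1, a trefoil peptide long used as a readout of the estrogen receptor (chr21:42362282-42366535), stood at 1207 under DMSO, 8799 under lapatinib, 271 under JQ1 and 206 under the combination (-5.41 [-5.57, -5.26]). GREB1, a cofactor of the receptor, stood at 1676, 10943, 380 and 758 (-3.85 [-3.93, -3.77]), and the chemokine gene CXCL12 at 239, 1831, 58.5 and 84.0 (-4.43 [-4.70, -4.20]). All 3 genes were several times higher with lapatinib than with DMSO and lower than DMSO once JQ1 was present. STC2, which encodes a secreted glycoprotein, differed in that JQ1 alone hardly moved it: it stood at 461, 2039, 384 and 376 (-2.44 [-2.56, -2.32]). TFF3, the neighbour and relative of TFF1, stood at 3509, 8816, 2504 and 1153 (-2.93 [-3.0, -2.87]).

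AGR2, the paralogue of AGR3, departed from this pattern. It was highest under DMSO, at 9799, and stood at 4649 under lapatinib, 5084 under JQ1 and 359 under the combination (-3.69 [-3.82, -3.58]), so that the library of both drugs stood far below the other 3. The remaining members lowered were MYB, CA12, SLC39A6, AREG, RARA, SIAH2 and IGFBP4, with changes from -4.20 for IGFBP4 to -1.10 for the zinc transporter SLC39A6. The 5 that stayed within 2-fold were the kinase gene RET (467 and 366), NRIP1 (3058 and 2171), CELSR2 (854 and 1078), FKBP4 (7794 and 4423) and ADCY9 (490 and 259). CELSR2 was the 1 of the 21 with a value above 0, at 0.34. PDZK1 and EGR3 were left out, with no value over 19.7 in any BT474m1 library.

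**Figure D2:**
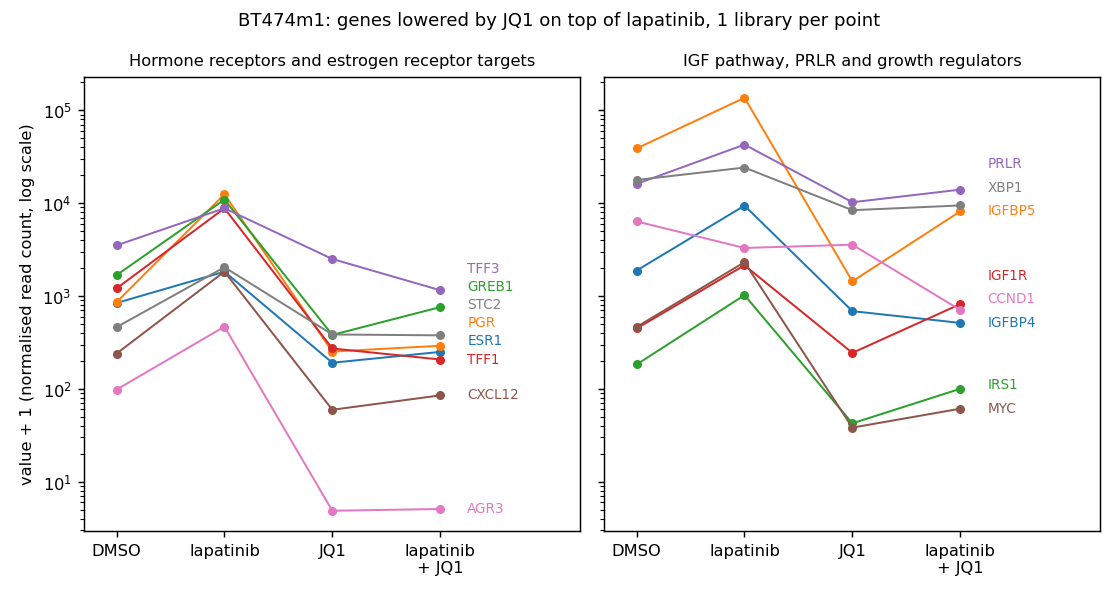
Values + 1 (normalised read count, log scale) of 16 lowered genes in the 4 BT474m1 libraries, 1 library per point, with lines joining the points of a gene. PGR, TFF1, GREB1, IGFBP4 and MYC peak with lapatinib and lie below DMSO with both drugs, whereas CCND1 is lowest with both drugs (706) and at 3290 and 3569 with each drug alone.

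Genes of the insulin and insulin-like growth factor pathway were lowered in part. Of 10 kept, 5 were lowered and none raised, with a median of -0.83, or -0.23 among members at 100 or more in both libraries, beside 8.52% lowered and 3.10% raised over all genes kept. IGFBP5, which encodes a secreted binding protein (chr2:216672105-216695549), lost more units than any other gene: it stood at 38861 under DMSO, 136501 under lapatinib, 1438 under JQ1 and 8160 under the combination (-4.06 [-4.09, -4.04]). IGFBP4, its relative, stood at 1880, 9404, 686 and 512 (-4.20 [-4.30, -4.10]). IRS1, the adaptor that couples these receptors to PI3K, stood at 182, 1021, 41.5 and 99.1 (-3.35 [-3.60, -3.14]). The receptor IGF1R fell from 2140 to 817 but stayed above its DMSO value of 446, unlike IRS1 and IGFBP4. The paralogous adaptor IRS2 had values of 726 and 841, and INSR of 834 and 785, so that neither followed IRS1. The binding protein gene IGFBP3 fell from 128 to 48.4. The ligands IGF1 and IGF2 did not exceed 12.7 units in any BT474m1 library.

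Breast secretory products were lowered in 7 of 12 genes kept, with a median of -1.39 and none raised, beside 8.52% lowered and 3.10% raised over all genes kept. SCGB2A2, which encodes mammaglobin A, stood at 1512 under DMSO, 1208 under lapatinib, 59.4 under JQ1 and 34.4 under the combination (-5.09 [-5.53, -4.76]). The acute phase inhibitor SERPINA3 fell from 320 to 16.9, the prolactin-inducible protein PIP from 282 to 32.7, and SCGB1D2, the partner of mammaglobin, from 172 to 16.9. The prolactin receptor gene PRLR stood at 16113, 42749, 10231 and 13986 (-1.61 [-1.63, -1.59]). Clusterin, encoded by CLU, did not take part, at 10411 and 12779 (0.30 [0.27, 0.32]), nor did MUCL1 at 1149 and 1012. APOD (105 to 17.5) and MUC1 (1314 to 581) completed the 7. Among members at 100 or more in both libraries, chosen after seeing the data, the list's median was -0.73. TCN1, a vitamin B12 carrier, and BCAS1 were among the 8 genes that lost most units, from 13652 to 573 and from 26431 to 7096.

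Of 15 luminal transcription factors kept, 13 were neither raised nor lowered, beside 3.10% raised and 8.52% lowered of all genes kept. In this list the epithelial factor ELF3 was raised, from 3736 to 7517 (1.01 [0.97, 1.05]), XBP1 was lowered, from 24192 to 9448 (-1.36 [-1.38, -1.33]), and the median was -0.17. FOXA1, the pioneer factor that opens chromatin for the estrogen receptor, stood at 12907, 8957, 13200 and 10157 (0.18 [0.15, 0.21]), and GATA3 at 2412, 2419, 1938 and 1779 (-0.44 [-0.51, -0.38]). None of the 14 forkhead genes kept passed 2-fold, in either direction. Among the 19 other nuclear receptors kept, 4 were lowered and none raised: ESRRG from 257 to 23.3, THRA from 3299 to 1243, RARG from 716 to 286 and RARA from 2557 to 1075. Of all genes kept 8.52% were lowered and 3.10% raised, and the list's median of -0.37 was -0.16 over the members with 100 units or more in both libraries. All of these values are of RNA, and the binding of FOXA1 or GATA3 to chromatin was not measured in these libraries.

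ERBB2 itself, which encodes HER2 and is amplified in this line, stood at 95962 under DMSO, 118705 under lapatinib, 94678 under JQ1 and 104594 under the combination (-0.18 [-0.19, -0.17]). Its partner ERBB3, which lapatinib is known to raise, stood at 5557, 12375, 4112 and 8897 (-0.48 [-0.51, -0.45]), so that the library of both drugs kept a value above DMSO. EGFR (2638 and 2941) and ERBB4 (317 and 205) also stayed within 2-fold. The ligand genes AREG, from 151 to 30.3, and TGFA, from 493 to 238, were the 2 of 14 ERBB genes kept that were lowered, beside 8.52% of all genes kept. The feedback inhibitor ERRFI1 had values of 286 and 506 (0.82 [0.66, 0.99]). Among 22 other receptor tyrosine kinases kept, TYRO3, MET, STYK1, EPHB6 and IGF1R were lowered and EPHA7 was raised, beside 8.52% and 3.10% of all genes kept, and the list's median was -0.11. MET, the receptor of hepatocyte growth factor, stood at 1227, 1315, 517 and 349 (-1.91 [-2.05, -1.78]), and TYRO3 at 333, 338, 86.5 and 52.5 (-2.66 [-3.02, -2.36]). Their lapatinib values lay close to those under DMSO, unlike that of IGF1R.

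Downstream of these receptors, INPP4B, a phosphatase that removes a PI3K product and a luminal marker, stood at 1425, 3067, 125 and 293 (-3.38 [-3.52, -3.26]), and the kinase gene SGK3 fell from 2644 to 690. They were the 2 lowered of 17 PI3K genes kept, whose median was -0.16, which is near the 8.52% lowered over all genes kept. CCND1, encoding cyclin D1, stood at 6358 under DMSO, 3290 under lapatinib, 3569 under JQ1 and 706 under the combination (-2.22 [-2.31, -2.13]), and CDK6, its kinase partner, fell from 863 to 273. JUN was raised from 1487 to 4079 (1.45 [1.39, 1.52]) and the immediate early gene EGR1 from 130 to 263 (1.01 [0.78, 1.26]), while FOSL2 fell from 3127 to 1385 and BATF from 217 to 70.0. Of the 9 AP-1 and immediate early genes kept, 2 were raised, 2 lowered and 5 neither, beside 3.10% raised and 8.52% lowered of all genes kept.

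The 15 genes raised most were TBC1D3G, AHNAK2, PDE4C, TMEM158, H3C14, SH3GL2, FYN, CLSTN2, AP3B2, NCAM1, EIF3C, PCBP3, HYCC1, SERPINI1 and MAP2, with changes from 5.48 to 2.69. AHNAK2, a very large scaffold protein, stood at 24.5 under DMSO, 16.3 under lapatinib, 632 under JQ1 and 543 under the combination, a 31.5-fold rise (4.98 [4.51, 5.67]). FYN, a kinase of the SRC family, stood at 11.8, 10.2, 229 and 114 (3.35 [2.76, 4.28]), and HYCC1, part of a lipid kinase complex at the plasma membrane, at 647, 242, 2237 and 1708 (2.82 [2.67, 2.98]). These 3 genes were high in both JQ1 libraries and low in both libraries without it. MAP2, CLSTN2, NCAM1, SH3GL2 and AP3B2 are best known from neurons, and this shared trait was noticed after their values were seen and was not tested. All of them but MAP2 passed the filter through the library of both drugs alone. MAP2, a microtubule-binding protein, stood at 140, 117, 940 and 761. NCAM1, a cell adhesion molecule, stood at 9.90, 28.9, 46.9 and 245 in the same order.

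TBC1D3G, PDE4C and EIF3C were raised with both drugs but not by JQ1 alone. TBC1D3G stood at 21.7 under DMSO, 3.73 under lapatinib, 1.69 under JQ1 and 211 under the combination, and belongs to a family of near-identical copies among which reads may be divided differently in each library. EIF3C, a subunit of a translation initiation factor with a near-identical copy, stood at 180, 114, 177 and 936, and is uncertain for the same reason. PDE4C, a phosphodiesterase for cyclic AMP, stood at 0.471, 10.8, 1.45 and 159 (3.76 [3.19, 4.65]). In units of value, the largest gains were those of the nuclear noncoding RNAs MALAT1, from 106381 to 135223, and NEAT1, from 24677 to 43995, and SCD, PSAP, HSP90AA1, KRT7 and KRT8 were also among the 8 largest. Of these genes ranked by units gained, SCD was the 1 past 2-fold.

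Several histone genes were raised. Of 11 replication-dependent histone genes kept, 5 were raised and 1 lowered, beside 3.10% and 8.52% of all genes kept, and their median was 0.86, or 0.47 among members at 100 or more in both libraries. These messages normally end without a poly(A) tail, and the library was made from poly(A) RNA, so that their values cover the polyadenylated part. H4C14 stood at 136 under DMSO, 239 under lapatinib, 1401 under JQ1 and 1150 under the combination (2.26 [2.11, 2.42]), H2AC18 at 123, 237, 804 and 616, and H3C14 at 5.66, 10.1, 89.0 and 131 (3.57 [2.97, 4.48]). H2BC12 was lowered, from 1701 to 779. H4C14, H2AC18 and H3C14 have identical or near-identical copies in the same cluster on chromosome 1, so that the division of reads between copies is uncertain. H2AC8 and H2BC21 completed the 5, at 57.8 and 155 and at 250 and 551.

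A few genes of DNA replication and of the passage from G1 to S phase were raised. PCNA, the sliding clamp of the replication fork, stood at 5381 under DMSO, 848 under lapatinib, 5215 under JQ1 and 2725 under the combination, a 3.21-fold rise on top of lapatinib (1.68 [1.60, 1.77]). GMNN, which encodes the licensing inhibitor geminin, stood at 663, 157, 757 and 437 (1.48 [1.28, 1.69]), and CCNE2, cyclin E2, at 1542, 195, 1441 and 510 (1.38 [1.20, 1.57]). All 3 were lowest with lapatinib, close to DMSO with JQ1 alone, and between these levels with both drugs. Of 24 replication genes kept from 39, PCNA and GMNN were raised and none lowered, beside 3.10% and 8.52% of all genes kept. The others kept stayed within 2-fold, with MCM5 at -0.87, MCM2 at -0.04 and GINS2 at 0.85, and the list's median was 0.04. Members under the filter moved both ways, and some are named after their values were seen. GINS4 (19.3 to 63.6) and CDC6 (29.5 to 74.1) rose, while CDT1 (65.1 to 26.2) and UHRF1 (30.1 to 9.91) fell. CDKN2D, an inhibitor of CDK4 and CDK6, rose from 49.4 to 294 (2.55 [2.23, 2.93]). Of 17 G1 cyclins, kinases and inhibitors kept, CCNE2 and CDKN2D were raised and CCND1 and CDK6 lowered, beside 3.10% raised and 8.52% lowered of all genes kept, and the list's median was -0.01.

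Most mitotic genes were under the filter with lapatinib and with both drugs. Only 11 of 34 reached 100 units in either library, CCNF was the 1 of them raised (237 and 484), none was lowered, and the median was -0.20, beside 3.10% raised and 8.52% lowered of all genes kept. Of the rest, PLK1, the polo-like kinase of mitosis, stood at 1747 under DMSO, 59.6 under lapatinib, 698 under JQ1 and 53.1 under the combination, and MKI67, the proliferation marker Ki-67, at 2740, 54.8, 1275 and 54.2. Of the 23 under the filter, 19 had an interval that included no change. The interval lay below it for BUB1B (75.2 to 31.7, -1.22 [-1.75, -0.79]), BIRC5 (19.5 to 7.59, -1.25 [-2.40, -0.38]) and SPC25 (10.2 to 2.92, -1.52 [-3.61, -0.31]), and above it for BUB1 (62.7 to 93.3, 0.57 [0.21, 0.94]). PLK1 and MKI67 are named as defining members of the list, and the other 4 after their values were seen.

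Several genes of sterol and fatty acid synthesis were raised. Of 23 sterol genes kept, 5 were raised and none lowered, with a median of 0.45, and 21 of the 23 lay above 0, beside 3.10% raised, 8.52% lowered and 5350 of 10813 above 0 over all genes kept. INSIG1, which retains the SREBP factors in the endoplasmic reticulum and is itself their target, stood at 3174 under DMSO, 366 under lapatinib, 4556 under JQ1 and 1079 under the combination (1.56 [1.43, 1.69]). STARD4, a cholesterol carrier, stood at 344, 24.1, 428 and 104 (2.06 [1.61, 2.64]). Among the enzymes, IDI1 rose from 950 to 2325, DHCR7 from 889 to 1934 and MSMO1 from 719 to 1444, the last at the threshold. In each of these 5 genes lapatinib gave the lowest of the 4 values, and adding JQ1 brought the value up without reaching that of DMSO.

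Of 15 genes of fatty acid synthesis, SCD, SREBF1 and ELOVL7 were raised and none was lowered, beside 3.10% and 8.52% of all genes kept. SCD, the desaturase that makes monounsaturated fatty acids, stood at 58336, 7451, 127178 and 22471 (1.59 [1.56, 1.62]). SREBF1, which encodes the SREBP factor that drives it, stood at 4852, 2986, 13399 and 9639 (1.69 [1.64, 1.74]), and unlike SCD its value with both drugs was above DMSO. ELOVL7, an elongase, rose from 266 to 599. The median of the 15 was 0.16.

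**Figure D3:**
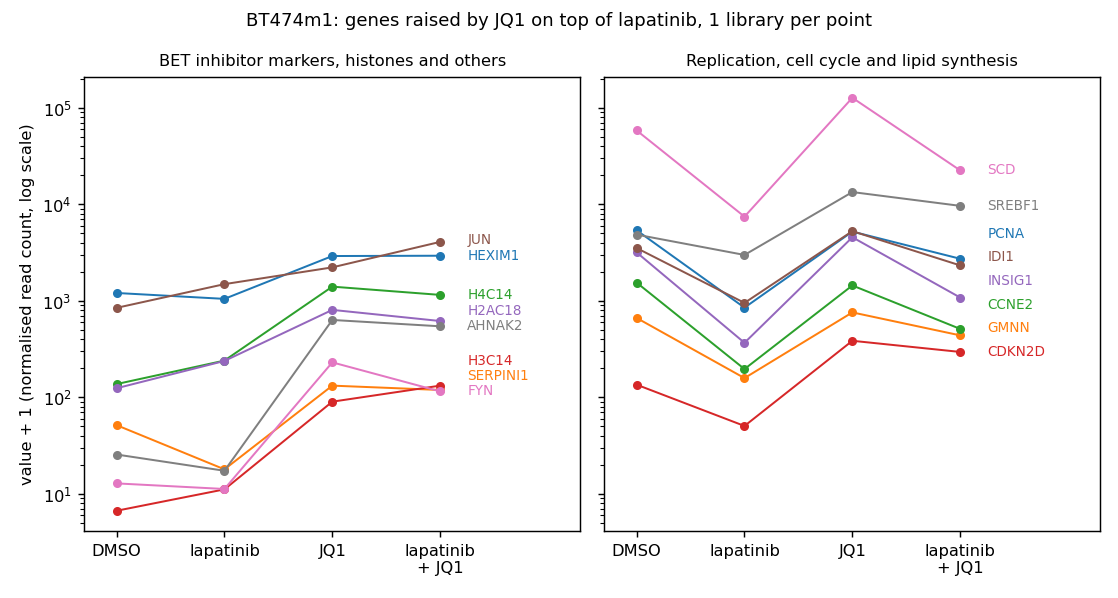
Values + 1 (normalised read count, log scale) of 16 raised genes in the 4 BT474m1 libraries, 1 library per point, with lines joining the points of a gene. AHNAK2, FYN and the histone genes are high in both libraries with JQ1, whereas PCNA, GMNN, CCNE2, INSIG1 and IDI1 dip with lapatinib and lie between the lapatinib and DMSO values with both drugs.

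Counts in the next lists stand beside 8.52% lowered and 3.10% raised over all genes kept. Of 10 MHC class I presentation genes kept, the peptide trimming enzymes ERAP2 (186 to 12.8) and ERAP1 (456 to 133) and the immunoproteasome subunit PSMB10 (255 to 86.9) were lowered, with a median of -0.64. That median was -0.34 among members at 100 or more in both libraries and 0.33 at a filter of 1000. Of 14 integrin and laminin genes kept, 4 were lowered, namely ITGB8, ITGB5, ITGA6 and ITGA2, with ITGB5 going from 2048 to 661. The small heat shock proteins HSPB8 (399 to 28.0) and HSPB1 (14834 to 6500) were lowered among 16 chaperones whose median was 0.02. SLC7A11, the cystine transporter, went from 175 to 23.3 and TRIB3 from 2558 to 1097 among 18 genes of the ATF4 and amino acid supply list with a median of -0.44. The BH3-only genes PMAIP1 (160 to 47.8) and BID (551 to 226) and the effector gene BOK (817 to 370) were lowered among 13 genes of the BCL2 family. No gene was raised in these 5 lists.

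In further lists both directions occurred or few genes moved. NEU1 (1046 to 2874) and GLA (104 to 261), hydrolases of the lysosome, were raised and MAP1LC3A (161 to 72.3) was lowered among 36 genes of lysosome and autophagy. IFI6 (56.6 to 186) and IRF7 (132 to 366) rose, and IFITM3 (208 to 79.4) and MX2 (587 to 290) fell, among 10 interferon-stimulated genes. SESN3 (40.4 to 125) and GADD45A (262 to 529) rose among 15 FOXO targets. The clock repressor PER1 rose (198 to 432) and the activator NPAS2 fell (154 to 36.7) among 15 clock genes. In the Notch pathway HES6 rose (167 to 563) and HEY2 (142 to 8.75) and MAML2 (172 to 46.6) fell among 15 genes. KLF2 rose (189 to 463) among 13 Kruppel-like factors, ENO2 (111 to 245) among 21 genes of glycolysis, and SEMA4F (1.27) among 21 semaphorins, plexins and neuropilins, in which SEMA6A (-1.95) and SEMA3E (-1.85) fell. Of 40 subunits of oxidative phosphorylation, 19 chaperones of the endoplasmic reticulum, 16 keratin and junction genes and 3 mesenchymal genes kept, none passed 2-fold.

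**Figure D4:**
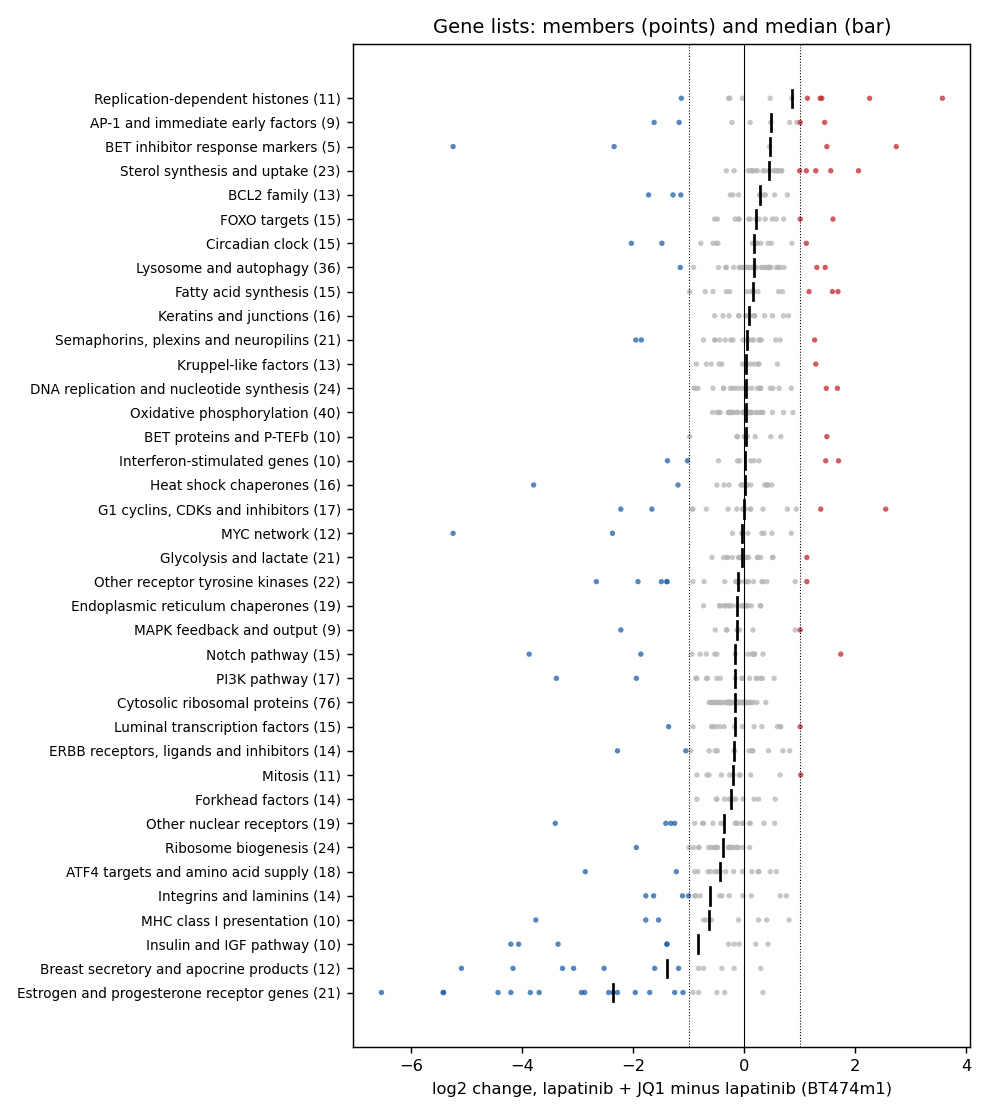
Log2 change between lapatinib + JQ1 and lapatinib in BT474m1 for the members kept of each gene list (points, the number kept in brackets) with the list's median (bar), for lists with 5 or more members kept; blue and red points are at least 2-fold lower and higher. Estrogen and progesterone receptor genes have the lowest median, -2.36, and replication-dependent histones the highest, 0.86.

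The same drug had been given without lapatinib in the same line, and that contrast (JQ1 against DMSO) shares no library with the present one. There, 342 of 10681 genes (3.20%) were raised and 772 (7.23%) lowered. Across the 10265 genes kept in both contrasts the changes had a Pearson r of 0.83 and a Spearman rho of 0.80, a description across genes that share line, drug and processing. JQ1 lowered 470 genes in both contexts, which is 62.2% of the 756 lowered with lapatinib and 74.5% of the 631 lowered without it. It raised 169 in both, or 56.7% of 298 and 55.4% of 305. The genes lowered with lapatinib had a median of -1.17 without it, and 735 of the 756 lay below 0 without it. Their median of -1.45 with lapatinib follows from how they were chosen, so the gap between these medians does not measure strength.

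The receptor targets stood apart from the diagonal. PGR changed by -5.42 with lapatinib present and by -1.77 without it, TFF1 by -5.41 and -2.15, AGR2 by -3.69 and -0.95, IGFBP4 by -4.20 and -1.45, and STC2 by -2.44 and -0.26. The intervals of these pairs did not overlap, and the list's median was -2.36 with lapatinib and -0.72 without, with 16 of 21 and 7 of 19 genes kept lowered, beside 8.52% and 7.23% of all genes kept. The values in the 2 libraries with JQ1 were close for PGR (251 and 290) and STC2 (384 and 376), so that for these genes the difference lay in the starting value, 858 against 12466 for PGR. AGR2 differed, since its starting value was lower with lapatinib than with DMSO. Its value with both drugs lay far below that with JQ1 alone. EHF, an epithelial ETS factor, went the other way, with -2.72 without lapatinib (2847 to 432) and -0.59 with it (4189 to 2787). PCNA and CCNE2 were raised with lapatinib present and changed by -0.05 and -0.10 without it. ADCY1, an adenylate cyclase, was the 1 gene past 2-fold in opposite directions, at -2.39 with lapatinib (1184 to 226) and 1.29 without (158 to 387).

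Histone genes had a median of 2.34 under JQ1 alone beside 0.86 on top of lapatinib, over the members kept in each contrast. Mitotic genes had a median of -1.02 under JQ1 alone, with 18 of 34 kept lowered, beside 7.23% of all genes kept in that contrast. On top of lapatinib the median was -0.20, and none of 11 was lowered, beside 8.52%. With no filter the median on top of lapatinib was -0.16.

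**Figure D5:**
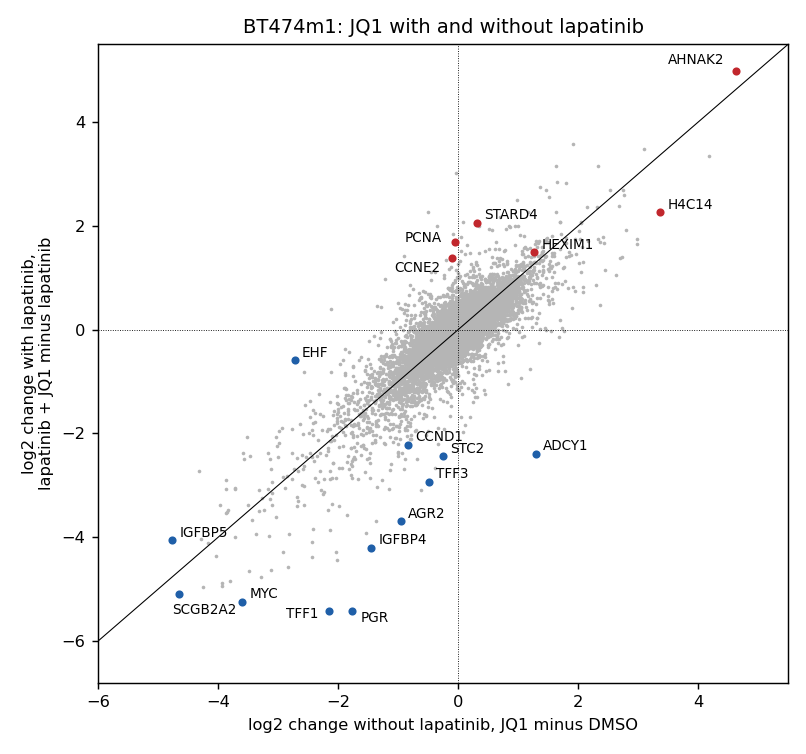
Log2 change on adding JQ1 to lapatinib (vertical axis) against that on adding JQ1 to DMSO (horizontal axis) in BT474m1, 1 point per gene for 10265 genes kept in both contrasts, 1 library each; the solid line marks equal change. PGR, TFF1, AGR2, IGFBP4 and STC2 lie below the line, EHF, PCNA and STARD4 above it, and ADCY1 alone is past 2-fold in opposite directions.

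In SKBR-3 the same addition, which again shares no library, raised 191 of 9950 genes (1.92%) and lowered 953 (9.58%). Over the 9383 genes kept in both lines the changes had a Pearson r of 0.58 and a Spearman rho of 0.52. The lines shared 278 lowered genes, which is 50.8% of 547 in BT474m1 and 38.6% of 721 in SKBR-3, and 52 raised genes, or 24.0% of 217 and 30.8% of 169. IGFBP5 (28073 to 2470), SCGB2A2 (731 to 7.57), ZMYND8 (1541 to 321) and BCAS1 (28877 to 4528) were lowered in SKBR-3 too. AHNAK2 is named in SKBR-3 at 13 and 89.4, under the filter there, and MAP2 was raised from 194 to 718.

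Other genes moved in BT474m1 and not in SKBR-3, or could not be compared. MYC had values of 1350 and 1416 in SKBR-3 (0.07), against a 37.9-fold fall in BT474m1. HEXIM1 stood at 2112, 2825, 3704 and 3277 there (0.21). PGR, TFF1, AGR3, IGFBP4 and CXCL12 did not exceed 22.2 units in any SKBR-3 library. Of the estrogen and progesterone receptor list 10 genes were kept in SKBR-3, of which 1 was lowered and none raised, with a median of -0.41. Mitotic genes had a median of -2.55 in SKBR-3 with 23 of 25 kept lowered, beside 9.58% of all genes kept there. In BT474m1 their median was -0.20 over 11 kept, so that fewer members were compared in that line. Oxidative phosphorylation genes had a median of -0.71 in SKBR-3 with 7 of 40 lowered, and of 0.03 in BT474m1 with none of 40. In 6 genes the lines moved past 2-fold in opposite directions, namely NUSAP1, DHRS2, NRK, AJM1, STARD4 and SLC7A11. NUSAP1, a mitotic spindle protein, was raised in BT474m1 (45.2 to 222) and lowered in SKBR-3 (308 to 104), and DHRS2, a short-chain dehydrogenase, was lowered in BT474m1 (3557 to 901) and raised in SKBR-3 (12380 to 131021). NRK and AJM1 were raised in BT474m1, at 1.03 and 1.04, and lowered in SKBR-3, at -2.56 and -1.96. Differences between the lines rest on 1 library for each treatment and line and were not tested.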

How the data were processed

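Poly(A) RNA of 2 cell lines under 4 treatments was sequenced, with 1 library per group, grouped by the labels. Each deposited table gives 1 signal for a gene, an RSEM estimate of its count that the authors scaled to an upper quartile of 1000 over the genes detected. The submitters' processing notes name hg19, Picard 1.88, SAMtools 1.2, R 3.2.2 and DESeq2 1.12.3, whereas the study's methods name another assembly and counter, so build and aligner are uncertain, and RefSeq positions (GRCh38.p14, found through the Entrez number for 20372 of 20531 genes, 99.2%) locate the gene and not the reads. The labels name 2 library kits, 1 of them stranded, so that antisense and overlapping genes are uncertain. The methods name a shorter treatment in general, and the labels' 48 h was used.

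The work was done in Python 3.11.15 (numpy 2.4.6; scipy 1.17.1; figures in matplotlib 3.10.9; tables in pandas 2.3.3). The value of 1 read was recovered as the common step of each library's values, by which 83.8% to 85.2% of values above 0 were whole within 0.02 reads. Dividing by it gave the reads behind each value. The scale keeps ratios between libraries only as far as the upper quartile itself did not move, and it does not correct for gene length. Changes were differences of log2(value + 1) for genes at 100 or more in either library. The fold shrinks for low genes through the pseudocount of 1. Intervals treat reads as independent, although PCR copies are not. With 1 library per group no model across genes was fitted, and the method was tested on simulated data.

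Genes named are the 15 raised most, the 15 lowered most, the 8 that gained and the 8 that lost most units, and members of 42 gene lists (1008 entries, 1003 in the tables, 696 kept) that passed 2-fold or define the list. Genes that moved in opposite directions between contrasts, and those in the neuronal group, were named after their values were seen. The results for 4 genes that the rule takes are not reported here. The lists and members were chosen with earlier results of these data known. Alternatives were another pseudocount, 2 other scalings and 6 other filters on the genes counted.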

Additional observations from a re-analysis of the deposited data

Results flagged for a closer look

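Of the genes taken by the naming rule, STARD4 and SLC7A11 passed 2-fold in opposite directions in the 2 lines when JQ1 was added to lapatinib. Several lists had medians of opposite sign in the 2 lines, and the 2 given here are those for which the median nearer to 0 was farthest from 0. With 1 library for each treatment and line, none of these differences could be tested. STARD4, the cholesterol carrier, had a log2 change of 2.06 in BT474m1 (24.1 to 104) and of -1.73 in SKBR-3 (123 to 36.5). SLC7A11, the cystine transporter, changed by -2.86 in BT474m1 (175 to 23.3) and by 1.66 in SKBR-3 (888 to 2813). The list of ATF4 factors and targets, of which SLC7A11 is a member, had a median of -0.44 over 18 genes kept in BT474m1 and of 1.04 over 20 kept in SKBR-3. Mesenchymal genes had a median of 0.26 over 3 genes kept in BT474m1, while the value of -1.29 in SKBR-3 is that of FN1, the 1 gene kept there. FN1 was under the filter in BT474m1, at -0.11, so that these values are of different genes.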

How the results depend on the processing

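The counts depended on the filter. Of genes raised and lowered, 335 and 921 as reported, there were 1089 and 2322 with no filter, 663 and 1644 at a value of 10, and 71 and 220 at a value of 1000. Requiring 100 or more in both libraries, an alternative chosen after seeing the data, gave 516 lowered. Genes raised and lowered by JQ1 both with and without lapatinib, 169 and 470 as reported, came to 398 and 1293 with no filter, 304 and 995 at 10, and 33 and 76 at 1000. They came to 98 and 221 with 100 or more in both libraries, and 111 were raised with 100 or more in DMSO. Genes raised and lowered in both lines, 52 and 278 as reported, came to 191 and 1001, 109 and 658, 13 and 29, and 34 and 112 under the same 4 settings in that order, and 34 were raised with 100 or more in DMSO. Each of these settings changes which genes are counted. The filter of 100 or more in both libraries also removes genes because they changed, since 405 of the 596 genes it drops on the lapatinib side were lowered.

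Scaling by the median of ratios moved the median of all genes by 0.03 and gave 354 raised and 840 lowered, 70.4% of them lowered, and equal totals moved it by 0.01 and gave 345 and 915, 72.6% lowered. No named gene past 2-fold changed sign under either scaling, and of the list medians only that of G1 cyclins did, from -0.01 to 0.01 under the median of ratios. Of 39 list medians, the largest shift under a scaling was 0.25, for breast secretory products (-1.39 to -1.14). Filters shifted list medians further, by -2.80 to 0.97 at 1000, by -1.40 to 0.39 with 100 or more in DMSO, and by -0.39 to 0.23 at 10. The insulin and IGF median went from -0.83 to -1.22 at 10 and to -1.39 at 1000. A filter at 1000 turned the median of the 5 BET inhibitor response markers from 0.46 to -2.34, and 100 or more in DMSO turned it to -0.94. The filter at 1000 leaves out SERPINI1 and ZCCHC24, and the filter on DMSO leaves out SERPINI1. A pseudocount of 10 moved genes near the counting floor most, with GFRA1 at -4.68 (from -7.00), KCNF1 at -3.85 (from -6.50), LGR6 at -3.55 (from -6.18) and SYNDIG1 at -3.48 (from -6.11). It took 4 of 142 named genes below 2-fold, the median of ratios 2 and equal totals 1. No paired analysis was possible because each group holds 1 library, and for the same reason no replicate could be left out. Depth limits genes at 3 reads or fewer, which is 1.81 units with lapatinib and 1.75 with both drugs.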
